A study of Mus musculus with 4 samples.

Results

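Mediator is the large multisubunit coactivator that bridges transcription factors bound at enhancers and the RNA polymerase II machinery at promoters. Its core is described as a head and a middle module, which contact polymerase, and a tail module, which receives most activators, all held together by the scaffold subunit MED14. A separable kinase module of CDK8 or CDK19, cyclin C, MED12 or MED12L and MED13 or MED13L docks reversibly on the core and blocks its contact with polymerase. In embryonic stem cells Mediator is known for its occupancy of enhancers and for its link with the cohesin loader NIPBL. The genes examined here are the protein-coding genes whose GENCODE symbol is Med followed by a number, with or without a final l, together with Cdk8, Cdk19 and Ccnc. They number 33 of the 36918 genes counted, and 32 of them were among the 14361 genes with enough counts to be tested.

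The degron group consisted of 2 libraries of chromatin-associated RNA (ChAR-seq, which enriches nascent transcripts) from mouse embryonic stem cells in which both alleles of the zinc finger gene Zbtb21 carry an auxin-inducible degron fused to GFP and the Rosa26 locus carries OsTIR1. Doxycycline (1 μg/ml, 24 h) was followed in this group by the auxin IAA (500 μM, 6 h), through which OsTIR1 directs the tagged ZBTB21 to degradation. The untreated group consisted of 2 libraries of the same engineered cells without IAA, and whether they received doxycycline is not stated, so the drugs and the loss of ZBTB21 cannot be told apart. Because the degron acts on the protein, Zbtb21 RNA does not check its loss, and the protein was not measured here. The paper reports rapid loss of the protein after IAA, by western blot, in its ZBTB21-degron cells. The degron cells were selected as clones, and whether the replicates came from separate cultures is not stated, so that each p-value reflects the spread of these 4 libraries, which may be technical.

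Total counts were 4262382 to 6479842 per library. Levels are given as CPM, counts divided by the library size as scaled with TMM. CPM is relative to the other genes, so a shift of the whole transcriptome would go unseen, and fewer transcribing cells cannot be told apart from less RNA per cell. The authors, who scaled their ChAR-seq counts to an added fly spike-in, report a global activation of transcription after ZBTB21 depletion. Rises and falls below are therefore relative to the other genes, and a gene that fell here may not have fallen in absolute terms. Of 8 embryonic stem cell markers 7 were detected above 1 CPM, and Dppa5a was at or near 0 in all 4 libraries. Summed marker levels were 3121 and 3083 CPM in degron libraries, against 2431 and 2454 CPM in untreated libraries. Not every marker followed the sum, as Zfp42 had 418 and 420 CPM in degron libraries and 429 and 470 CPM in untreated libraries. Primitive endoderm markers summed to 33.6 and 29.5 CPM in degron libraries and 50.3 and 43.8 CPM in untreated libraries, with all 5 reaching 1 CPM in at least 1 library. Fibroblast (4.07 to 7.65 CPM, Dcn at 0), neural (1.53 to 4.46 CPM, Sox1 and Neurod1 at 0) and mesoderm (0.458 to 1.22 CPM, Mesp1 at 0) markers were low. Other genes cover 100% of Sox1 and of Neurod1 on the same strand, so their 0 counts are not read as absence. The neural value is therefore that of Pax6 alone. The part of these markers in the values below was not tested.

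The comparison asked whether the RNA of Mediator genes changed on chromatin after ZBTB21 degradation. Genes of the head and tail modules were mostly higher in degron libraries, and genes of the kinase module were lower. At an adjusted p of 0.05 (edgeR, quasi-likelihood, Benjamini-Hochberg), 11 of the 32 tested genes rose and 8 fell. Among all tested genes 20.3% rose and 19.8% fell, 40.2% in either direction, so the share of Mediator genes that fell, 25%, lay near the background, and the share that rose was 34.4%. DESeq2's Wald test called 6 higher and 4 lower, beside 14.7% and 13.9% of the 10463 genes it gave an adjusted p. Med11 and Med31 were given none. With a replicate block 12 rose and 8 fell, beside 21.7% and 21.3%. Without degron replicate 1 the counts were 9 and 7, beside 16.6% and 14.5%, and without degron replicate 2 they were 9 and 7, beside 16.4% and 15.8%. Without untreated replicate 1 they were 10 and 8, beside 16.9% and 15.2%, and without untreated replicate 2 they were 10 and 5, beside 15.5% and 14.0%. Head genes rose in 4 of 6 cases and tail genes in 5 of 9, and none fell in either module. Middle genes rose in 2 of 9 cases and fell in 1, and Med14 fell. Kinase module genes fell in 6 of 7 cases and none rose. Median log2 fold changes (degron over untreated) were 0.34 for head, 0.32 for tail, 0.12 for middle and -0.24 for kinase module genes, beside -0.00075 for all tested genes. The middle median was 0.0052 without degron replicate 2, and the kinase module median was -0.38 without untreated replicate 1. In 15 Mediator genes both degron libraries lay above both untreated libraries (34.4% of all tested genes), and in 11 they lay below (34.6% of all tested genes). All 7 kinase module genes were among those 11.

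**Figure D1:**
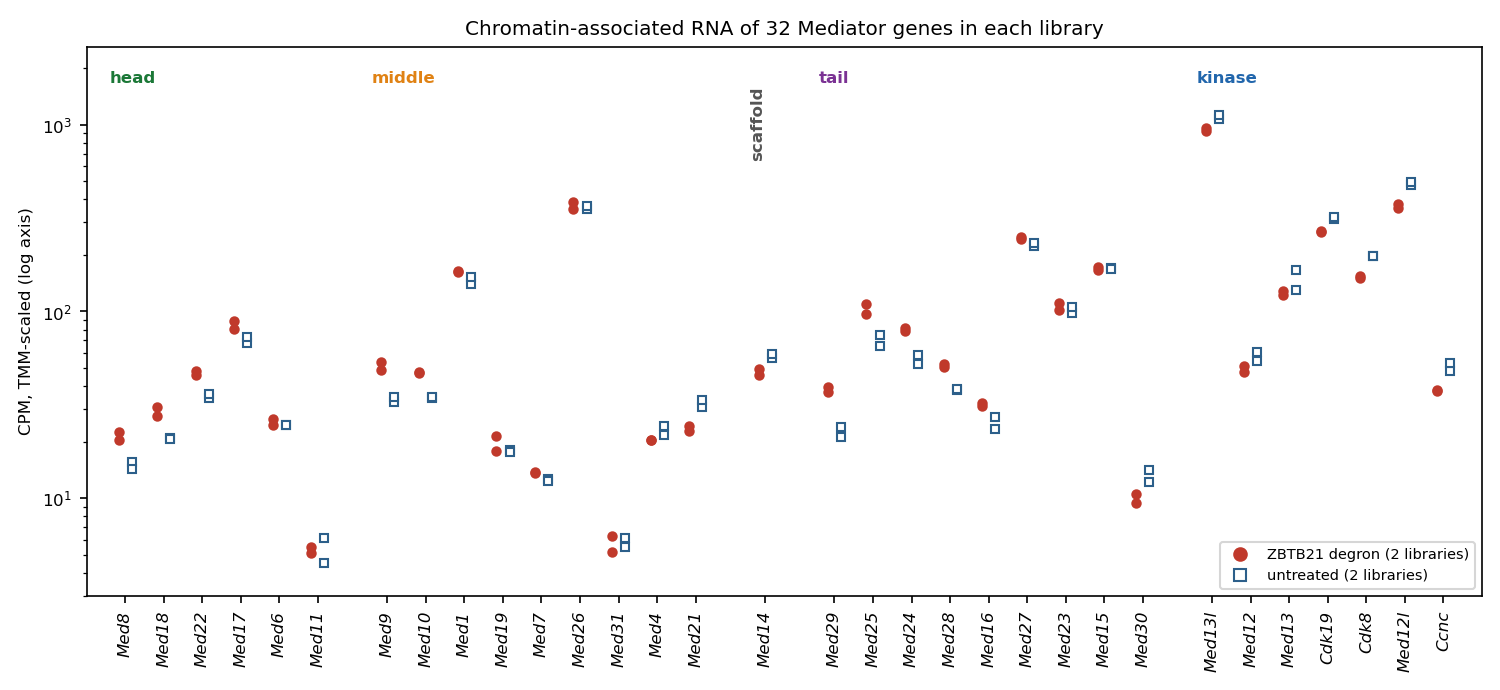
CPM (log axis) of the 32 tested Mediator genes, grouped by module and ordered within it by fold change, with each point a library: 2 degron (filled circles) and 2 untreated (open squares). Degron points sit above untreated points for 5 of 6 head and 6 of 9 tail genes, and below them for all 7 kinase module genes.

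These changes have to be read beside gene length, because the direction of change followed it across the transcriptome. Median log2 fold changes of all tested genes were 0.25 under 10 kb and -0.31 at 80 kb or longer. The kinase module genes are long, with a median of 90.6 kb, whereas the tested head genes have a median of 5.93 kb. Of 11 tested Mediator genes under 10 kb, 5 rose and 1 fell, beside 29.0% and 2.71% of all genes of this length. Of 6 from 10 to 20 kb, 5 rose and none fell, beside 30.1% and 5.59%. Of 8 from 20 to 80 kb, 1 rose and 2 fell, beside 17.5% and 20.0%. Of 7 at 80 kb or longer, none rose and 5 fell, beside 4.86% and 56.3%. Across the 32 genes, which share the same 4 libraries, Spearman's rho between gene length and log2 fold change was -0.44, and across all tested genes of known length it was -0.47. With the kinase module left out it was -0.17 over the 25 core genes.

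A scaling that removes the length trend within each library was therefore run as an alternative, and its values are called length-adjusted. With it 9 Mediator genes were higher and 6 lower, beside 16.2% and 11.8% of all genes, and 7 of the 19 calls were kept with their direction. The genes that kept them were Med9, Med24, Med25 and Med29, which rose, and Med21, Cdk8 and Ccnc, which fell. The share of all called genes that kept their call was not worked out, here or for the counts of kept calls below. Length-adjusted medians were 0.17 for head, 0.20 for tail, -0.090 for middle and -0.026 for kinase module genes. The kinase module split, with 3 genes lower, 1 higher and 3 past no threshold.

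**Figure D2:**
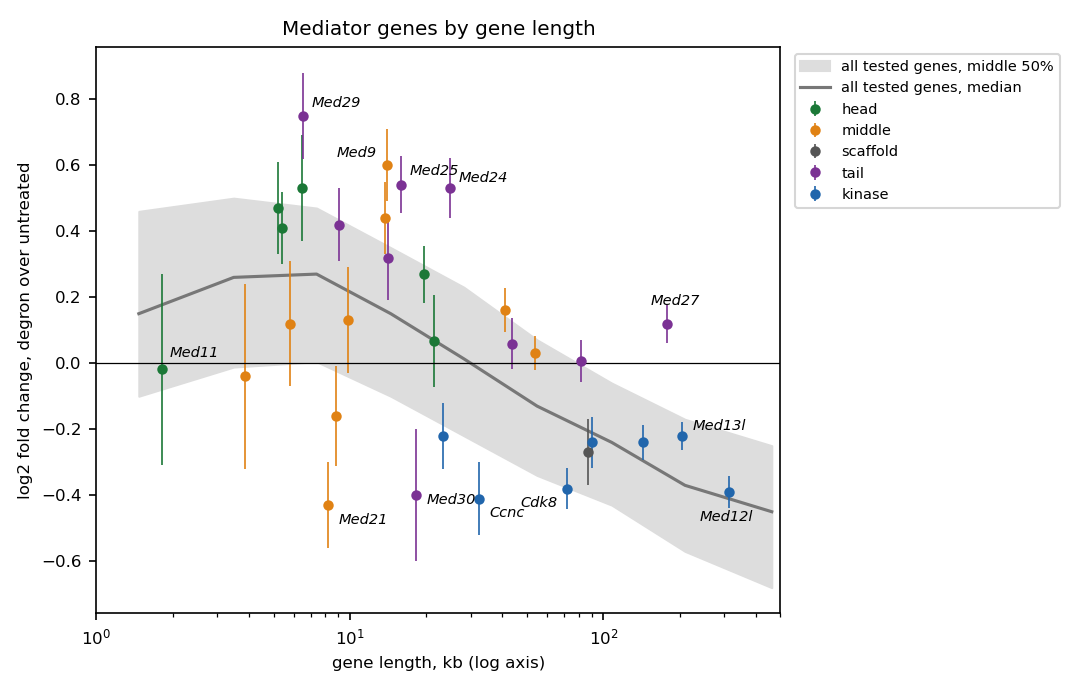
Log2 fold change (degron over untreated) of the 32 Mediator genes against gene length in kb (log axis), with bars for SE and colours for modules. The grey line and band are the median and middle 50% of all tested genes in length bins. For the longest genes the line runs down to -0.45 and the lower edge of the band to -0.68. Med29, Med24 and Med27 are among the genes above the band, and Med21, Med30 and Ccnc among those below it.

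Promoter sequences are shown for the genes whose call was kept with both scalings and that have an entry in the RefSeq promoter table (GRCm38.p6, the mm10 build), where 28 of the 33 genes matched. Med8, Med23, Med24, Med30 and Cdk19 have none. Each runs 5′ to 3′ from 250 bases before the RefSeq start, which can differ from the GENCODE start, to 50 bases from it. Capitals mark GGGCGG, the GC box bound by SP and KLF factors, CCAAT, the box bound by NF-Y, and the E-box CACGTG, on either strand (CCGCCC and ATTGG are the reverse complements). The genes that rose come first.
Med9, chr11:59947964-59948263, plus strand: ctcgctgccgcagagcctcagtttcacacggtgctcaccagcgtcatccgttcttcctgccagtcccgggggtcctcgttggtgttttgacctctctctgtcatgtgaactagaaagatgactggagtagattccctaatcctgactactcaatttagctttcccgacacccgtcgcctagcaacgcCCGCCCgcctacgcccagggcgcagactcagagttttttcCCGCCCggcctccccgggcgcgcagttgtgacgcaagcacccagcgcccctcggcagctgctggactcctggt
Med29, chr7:28392641-28392940, minus strand: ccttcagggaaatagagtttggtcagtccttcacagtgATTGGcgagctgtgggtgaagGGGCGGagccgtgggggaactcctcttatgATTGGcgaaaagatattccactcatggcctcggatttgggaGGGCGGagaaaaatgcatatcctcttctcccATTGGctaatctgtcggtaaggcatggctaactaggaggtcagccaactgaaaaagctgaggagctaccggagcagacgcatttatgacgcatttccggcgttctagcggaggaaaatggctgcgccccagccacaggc
Med25, chr7:44892375-44892674, minus strand: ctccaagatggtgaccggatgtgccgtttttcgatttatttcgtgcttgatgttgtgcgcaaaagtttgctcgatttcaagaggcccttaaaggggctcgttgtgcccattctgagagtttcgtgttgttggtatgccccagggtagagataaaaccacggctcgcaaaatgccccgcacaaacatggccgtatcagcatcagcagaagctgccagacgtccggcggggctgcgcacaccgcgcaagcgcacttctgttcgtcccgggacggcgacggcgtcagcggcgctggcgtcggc
Cdk8, chr5:146231000-146231299, plus strand: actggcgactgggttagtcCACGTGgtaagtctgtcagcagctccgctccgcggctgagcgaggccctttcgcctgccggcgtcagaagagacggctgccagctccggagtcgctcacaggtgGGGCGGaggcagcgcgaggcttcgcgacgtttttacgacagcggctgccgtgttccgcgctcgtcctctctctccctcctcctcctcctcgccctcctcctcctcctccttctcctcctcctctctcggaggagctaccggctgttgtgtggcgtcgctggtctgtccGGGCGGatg
Ccnc, chr4:21727451-21727750, plus strand: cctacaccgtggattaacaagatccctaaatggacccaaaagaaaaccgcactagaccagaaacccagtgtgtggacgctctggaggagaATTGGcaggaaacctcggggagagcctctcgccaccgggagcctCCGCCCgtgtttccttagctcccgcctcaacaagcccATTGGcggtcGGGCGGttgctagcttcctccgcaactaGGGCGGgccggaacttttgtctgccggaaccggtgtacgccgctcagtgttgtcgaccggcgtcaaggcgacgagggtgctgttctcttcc
Med21, chr6:146642329-146642628, plus strand: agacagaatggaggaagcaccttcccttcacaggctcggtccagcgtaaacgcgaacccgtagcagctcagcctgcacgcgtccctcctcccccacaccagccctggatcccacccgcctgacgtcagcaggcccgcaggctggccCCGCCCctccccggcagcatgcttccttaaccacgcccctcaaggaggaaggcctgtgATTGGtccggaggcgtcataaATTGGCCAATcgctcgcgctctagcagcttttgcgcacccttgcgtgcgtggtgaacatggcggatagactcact

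Grouped by TMM calls, 7 of 7 promoters of genes that fell held a GC box, and 4 of 9 of genes that rose. It was also in 6 of 11 of genes not called and in 18 of all 28 Mediator promoters (64.3%). Among all 32851 promoters in the table, which is not limited to tested genes, the share was 35.7%. CCAAT was found in 2 of 7 that fell, 3 of 9 that rose, 6 of 11 not called and 37.4% of all. The Ccnc promoter held 3 GC boxes, and the Med25 stretch no motif searched. For Med25 the RefSeq start lies 288 bp from the GENCODE start, so this stretch falls inside the gene as placed here. The same holds for Med12l (1153 bp), which fell, and for Med1 (387 bp) and Med15 (9944 bp), which were not called. The ETS core CCGGAAG was found in 1 of 7, 2 of 9 and 8.86%, the TATA box TATAAA in 0 of 7, 2 of 9 and 13.6%, and CACGTG in 1 of 7, 2 of 9 and 7.15%. The YY1 core AAGATGGC and the NRF1 core motif were in no promoter of genes that fell or rose and in 2.75% and 0.971% of all. The median GC content was 69.0% in promoters of genes that fell and 53.7% in those of genes that rose. It was 56.7% in those of genes not called and 52.7% in all. These are matches of letters, with no site or factor shown.

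In the head module, which contacts polymerase, Med22, Med18, Med8 and Med17 rose. Med22 (chromosome 2, 26905262 to 26910677, minus strand), whose protein pairs with MED11, had 45.6 and 48.2 CPM in degron libraries, against 34.4 and 36.0 CPM in untreated libraries. The log2 fold change was 0.41 ± 0.11 (SE; edgeR adjusted p = 0.00257). Med18, whose protein pairs with MED20, had 27.5 and 30.9 CPM in degron libraries, against 21 and 20.7 CPM in untreated libraries (log2 fold change 0.47 ± 0.14, edgeR adjusted p = 0.00615). For both genes the groups did not overlap. Med8, whose protein tethers that pair to the head, had 22.6 and 20.5 CPM in degron libraries, against 15.7 and 14.3 CPM in untreated libraries (log2 fold change 0.53 ± 0.16, edgeR adjusted p = 0.00816). Med17, which encodes the central subunit of the head, had 80.9 and 89.3 CPM in degron libraries, against 67.5 and 73.1 CPM in untreated libraries (log2 fold change 0.27 ± 0.09, edgeR adjusted p = 0.0109). All 4 calls were lost with length-adjusted scaling, at log2 fold changes of 0.16 for Med22, 0.22 for Med18, 0.28 for Med8 and 0.17 for Med17, and with DESeq2. Med8 lost its call without degron replicate 1 (edgeR adjusted p = 0.0698) or untreated replicate 2 (0.0708), and Med17 without degron replicate 2 (0.126) or untreated replicate 1 (0.107).

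Med6 (log2 fold change 0.066) and Med11 (-0.019) did not pass, and Med11, with 19 to 36 counts per library, is too thinly covered to follow. Med20 could not be measured. It had 1 count in each degron library and 0 in each untreated library, where 0 counts allow up to 0.637 and 0.715 CPM for counting error only. On the same strand 99.9% of Med20 is covered by Gm20517, a 72273 bp protein-coding entry, so reads from the 2 cannot be told apart. Gm20517 had 15.4 and 17.7 CPM in degron libraries and 11.0 and 15.2 CPM in untreated libraries (log2 fold change 0.33 ± 0.18, edgeR adjusted p = 0.153). Med20 is therefore not read as silent.

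Among middle genes, Med9 (chromosome 11, 59948206 to 59962205, plus strand), whose protein pairs with MED4, had the largest log2 fold change with TMM scaling, and Med21 with length adjustment. Med9 had 53.7 and 48.6 CPM in degron libraries, against 32.9 and 34.8 CPM in untreated libraries. The groups did not overlap, and the log2 fold change was 0.60 ± 0.11 (edgeR adjusted p = 2.23e-05), or 0.45 length-adjusted. Med10, which encodes a conserved middle subunit, had 47.3 and 46.8 CPM in degron libraries, against 34.6 and 35.0 CPM in untreated libraries (log2 fold change 0.44 ± 0.11, edgeR adjusted p = 0.00146). Its length-adjusted value was 0.27 and not past the threshold (edgeR adjusted p = 0.0562). A noncoding gene on the opposite strand covers 45.1% of Med10.

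Med21 (chromosome 6, 146642547 to 146650732, plus strand), whose protein forms the hinge of the middle module with MED7, went the other way although it is short. It had 24.4 and 22.8 CPM in degron libraries, against 30.8 and 33.4 CPM in untreated libraries, with no overlap. The log2 fold change was -0.43 ± 0.13 (edgeR adjusted p = 0.00752), and -0.67 after length adjustment. The call was lost without untreated replicate 2 (-0.37, edgeR adjusted p = 0.0867) and with DESeq2 (adjusted p = 0.108). Med4, the partner of Med9, had 20.6 and 20.5 CPM in degron libraries and 21.7 and 24.3 CPM in untreated libraries. It passed only with length adjustment (-0.39, against -0.16 with TMM).

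The middle genes with the highest levels, Med26 and Med1, did not pass with TMM scaling. Med26, whose protein recruits elongation factors, had 352 and 383 CPM in degron libraries and 353 and 365 CPM in untreated libraries, which overlapped (log2 fold change 0.032 ± 0.052, edgeR adjusted p = 0.668). Med1, which encodes the subunit that binds nuclear receptors, had 163 and 164 CPM in degron libraries and 140 and 153 CPM in untreated libraries. Its log2 fold change of 0.16 ± 0.07 missed the threshold (edgeR adjusted p = 0.0542), and it passed without untreated replicate 2 (0.23, edgeR adjusted p = 0.0219). With length adjustment both passed, Med1 at 0.22 and Med26 at 0.14. Med19, Med7 and Med31 lay between -0.040 and 0.13 and did not pass. Med14, the scaffold gene on the X chromosome, had 49.3 and 46.0 CPM in degron libraries, against 56.5 and 59.3 CPM in untreated libraries (log2 fold change -0.27 ± 0.10, edgeR adjusted p = 0.0232). Med14 lost its call without degron replicate 2 (edgeR adjusted p = 0.149) or untreated replicate 2 (0.148), and was at -0.072 after length adjustment.

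The tail module held the largest rise of the complex. Med29 (chromosome 7, 28386146 to 28392708, minus strand), a metazoan subunit of the upper tail, had 37.2 and 39.5 CPM in degron libraries, against 24.0 and 21.4 CPM in untreated libraries. This was a log2 fold change of 0.75 ± 0.13 (edgeR adjusted p = 8.77e-06), or 0.49 length-adjusted. The antisense gene Gm44710 covers 97.0% of Med29 from the opposite strand and was at 8.34 to 11.9 CPM in the 4 libraries. The strand setting of the counting is not stated. Med29 kept 90 to 244 counts per library under this cover, whereas Med20, covered on the same strand, kept 0 or 1. Whether reads of Med29 and Gm44710 were mixed was not tested.

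Med25 (chromosome 7, 44876765 to 44892712, minus strand), whose protein binds the activation domain of VP16 and of ETS factors of the PEA3 group, overlaps no other gene. It had 96.6 and 109 CPM in degron libraries, against 74.8 and 65.3 CPM in untreated libraries (log2 fold change 0.54 ± 0.09, edgeR adjusted p = 2.03e-06). Med24 (chromosome 11, 98704591 to 98729435, minus strand), which encodes a subunit of the lower tail beside MED16 and MED23, had 81.6 and 78.3 CPM in degron libraries, against 58.6 and 52.4 CPM in untreated libraries (log2 fold change 0.53 ± 0.09, edgeR adjusted p = 8.44e-06). Length-adjusted values were 0.41 for Med25 and 0.48 for Med24. The calls of Med9, Med24, Med25 and Med29 held under every alternative run, DESeq2 and each left-out library included.

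Med28 had 50.2 and 52.3 CPM in degron libraries, against 38.0 and 38.6 CPM in untreated libraries (log2 fold change 0.42 ± 0.11, edgeR adjusted p = 0.00153), and did not pass with length adjustment (0.19). Med16 had 32.5 and 31.1 CPM in degron libraries, against 27.4 and 23.6 CPM in untreated libraries (log2 fold change 0.32 ± 0.13, edgeR adjusted p = 0.0496). This call sat at the threshold and was lost without degron replicate 1 (0.179), degron replicate 2 (0.0622) or untreated replicate 2 (0.307), as edgeR adjusted p, and with length adjustment (0.16). Med30 was the tail gene that lay below, with 9.46 and 10.6 CPM in degron libraries and 12.3 and 14.1 CPM in untreated libraries. Its log2 fold change of -0.40 ± 0.20 did not pass (edgeR adjusted p = 0.107), whereas the length-adjusted value of -0.51 did (edgeR adjusted p = 0.0486).

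Among the longer tail genes, none passed with TMM scaling apart from Med24. Med27, of 178 kb, had 249 and 245 CPM in degron libraries and 223 and 232 CPM in untreated libraries (log2 fold change 0.12 ± 0.06, edgeR adjusted p = 0.0964). Its length-adjusted value was 0.45 (edgeR adjusted p = 7.84e-09). Med15, whose protein binds SREBP, was at 0.0062 and passed with length adjustment (0.20, edgeR adjusted p = 0.0136). Med23, a target of RAS signalling through ELK1, was at 0.059 and at 0.13 length-adjusted and passed neither test. When MED27 to MED30 were counted in the head, as older schemes do, medians stayed at 0.34 for head and 0.32 for tail genes.

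**Figure D3:**
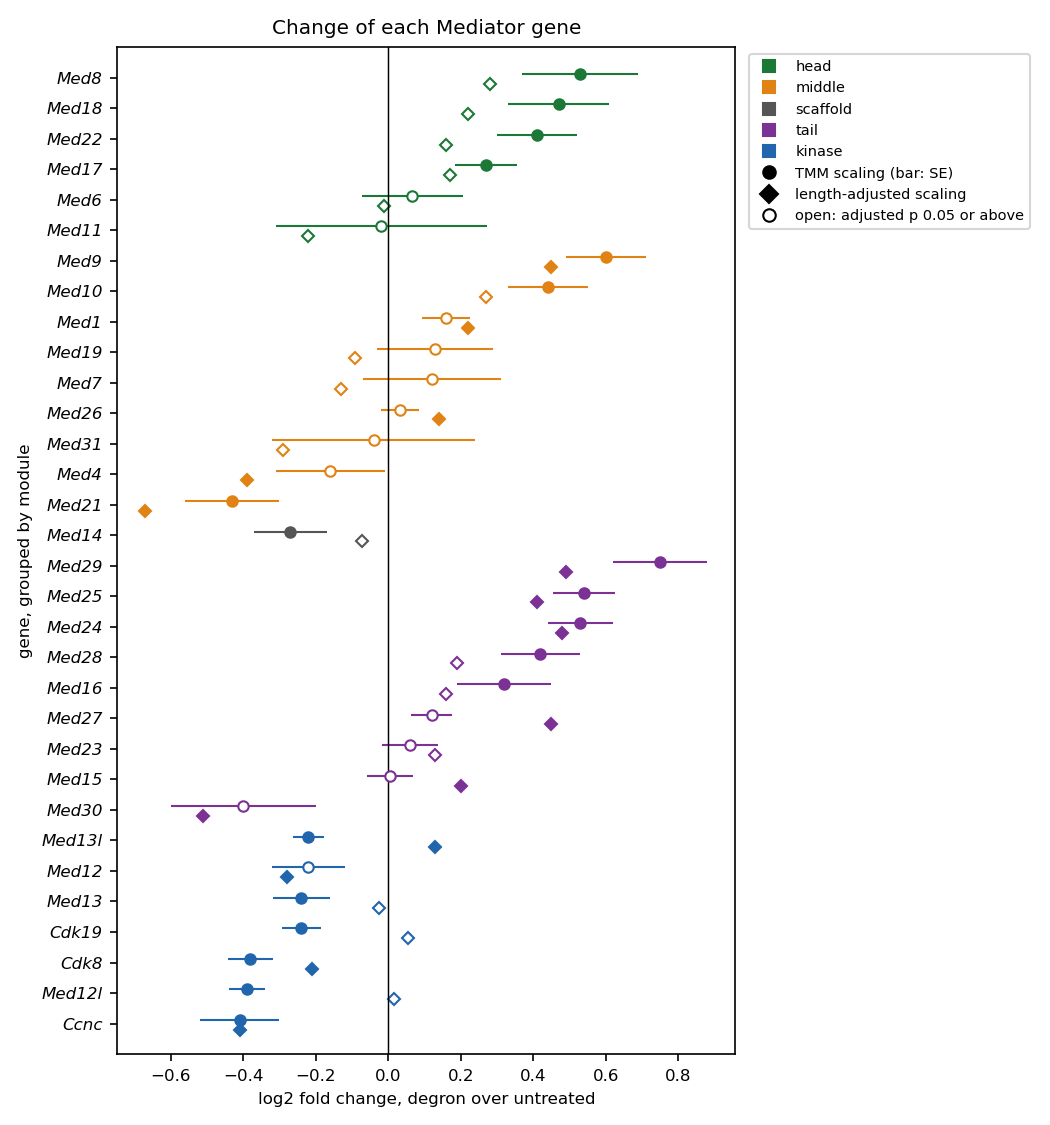
Log2 fold change (degron over untreated) of each of the 32 Mediator genes, with circles for TMM scaling (bars, SE) and diamonds for length-adjusted scaling; open symbols did not pass an adjusted p of 0.05. Diamonds of short genes lie left of their circles and those of long genes right of them, so that Med12l is at -0.39 with TMM and 0.015 length-adjusted, while Ccnc is at -0.41 with both.

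In the kinase module, Cdk8 and Ccnc fell with both scalings. Cdk8 (chromosome 5, 146231230 to 146302874, plus strand), which encodes the kinase, had 151 and 154 CPM in degron libraries, against 198 and 199 CPM in untreated libraries. Its log2 fold change was -0.38 ± 0.06 (edgeR adjusted p = 3.9e-06), or -0.21 length-adjusted (edgeR adjusted p = 0.00705), and its call held under every alternative run. Ccnc (chromosome 4, 21727701 to 21759922, plus strand), which encodes cyclin C, the partner that CDK8 and CDK19 need, had 37.5 and 38.0 CPM in degron libraries, against 47.8 and 53.1 CPM in untreated libraries. Ccnc had a log2 fold change of -0.41 ± 0.11 (edgeR adjusted p = 0.00183), the same after length adjustment, and it missed the threshold with DESeq2 (adjusted p = 0.0527).

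Cdk19, the paralogue of Cdk8, had 266 and 268 CPM in degron libraries, against 311 and 319 CPM in untreated libraries (log2 fold change -0.24 ± 0.05, edgeR adjusted p = 0.000343). The gene spans 144 kb, and its length-adjusted value was 0.054 (edgeR adjusted p = 0.493). Within each library, where no scaling enters, the log2 ratio of Cdk8 to Cdk19 counts was -0.82 and -0.80 in degron libraries, against -0.65 and -0.69 in untreated libraries. The groups did not overlap, and the difference was -0.14. An exact two-sided permutation test gave p = 0.333, the smallest that 2 against 2 libraries allow.

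Med12l (chromosome 3, 59005825 to 59318682, plus strand), the longest gene of the complex, had 375 and 359 CPM in degron libraries, against 473 and 493 CPM in untreated libraries. It fell with the smallest adjusted p of the 32 tested genes (log2 fold change -0.39 ± 0.05, edgeR adjusted p = 1.45e-08) but was at 0.015 after length adjustment. Genes on the opposite strand, among them P2ry12 and P2ry14, cover 36.2% of it, and each of these was under 10 CPM in every library. Med12, the X-linked paralogue whose protein activates CDK8, had 51.0 and 47.2 CPM in degron libraries and 60.5 and 54.3 CPM in untreated libraries. Its log2 fold change of -0.22 ± 0.10 did not pass (edgeR adjusted p = 0.0679), whereas the length-adjusted value of -0.28 did (edgeR adjusted p = 0.0262). The log2 ratio of Med12 to Med12l counts was -2.88 and -2.93 in degron libraries, against -2.97 and -3.18 in untreated libraries (difference 0.17, exact permutation p = 0.333). This difference was 0.063 without untreated replicate 2 and 0.28 without untreated replicate 1. No scaling enters the ratio, but Med12 spans 23.4 kb and Med12l 313 kb, so it carries the length trend, as the other paralogue ratios do. The length-adjusted values of Med12 and Med12l, -0.28 and 0.015, lie the other way round, and the part of length was not tested. Per kb of gene body Med12 was 1.84 and 1.77 times as high as Med12l in degron libraries and 1.73 and 1.49 times in untreated libraries.

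Med13l was the most abundant Mediator transcript by counts, with 922 and 963 CPM in degron libraries, against 1070 and 1131 CPM in untreated libraries (log2 fold change -0.22 ± 0.04, edgeR adjusted p = 3.02e-05). This was the call that turned over, to a rise of 0.13, with length adjustment (edgeR adjusted p = 0.0231). Med13, whose protein links the kinase to the core, had 123 and 128 CPM in degron libraries, against 131 and 167 CPM in untreated libraries (log2 fold change -0.24 ± 0.08, edgeR adjusted p = 0.0136). The fall of Med13 rested on untreated replicate 2, without which it was at -0.047 (edgeR adjusted p = 0.733), and the call was also lost without degron replicate 1 (0.0779). The antisense gene Brip1os covers 41.3% of Med13 and was at 28.5 to 37.8 CPM. The ratio of Med13 to Med13l overlapped between the groups (log2 difference -0.0073, exact permutation p = 1), and the difference was -0.14 without untreated replicate 1 and 0.13 without untreated replicate 2. Per kb Med13l was above Med13 in all 4 libraries, with Med13 at 0.303 and 0.302 of it in degron libraries and 0.277 and 0.334 in untreated libraries.

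The balance of the kinase module and the core was also read within each library. Kinase module counts were 1.08 and 1.07 times the core counts in degron libraries, against 1.43 and 1.48 times in untreated libraries. With Med13l left out, which held 24.9% to 27.9% of all Mediator counts, the ratios were 0.561 and 0.542 in degron libraries, against 0.762 and 0.787 in untreated libraries. In both forms the groups did not overlap. The difference was not tested, and 0.333 is the smallest p that an exact permutation test of 2 against 2 libraries allows. Summed levels were 1925 and 1957 CPM for kinase module genes in degron libraries, against 2290 and 2417 CPM in untreated libraries, and 1786 and 1836 CPM for core genes in degron libraries, against 1602 and 1635 CPM in untreated libraries. Because kinase module genes are longer, this ratio moves with the length trend, and its part was not tested apart from the length-adjusted values of single genes.

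**Figure D4:**
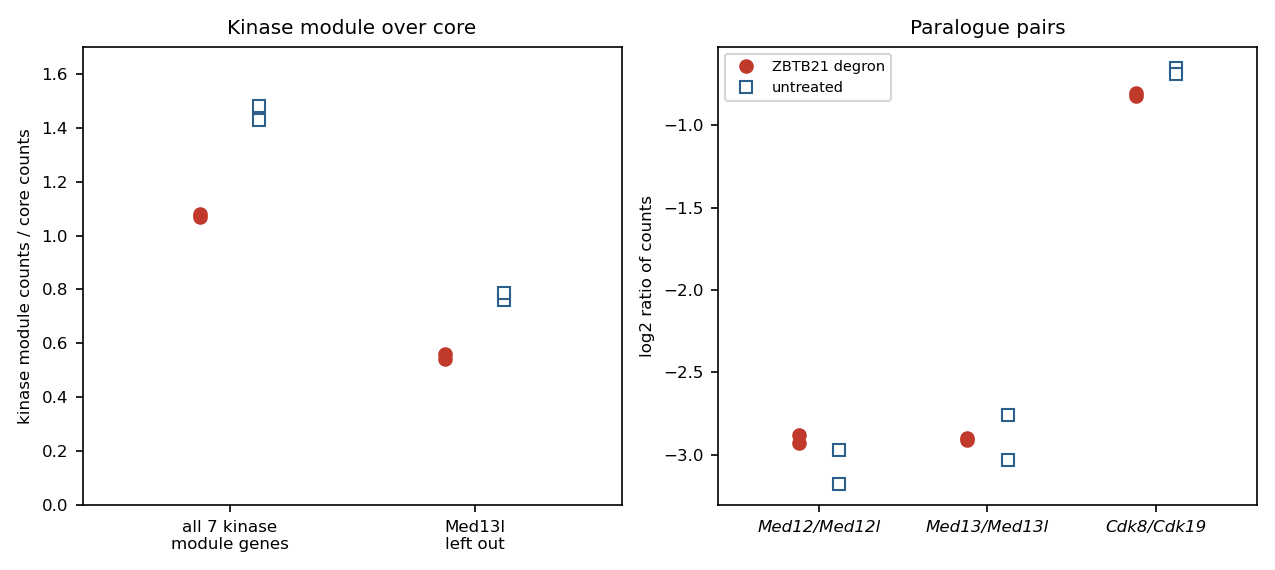
Left, kinase module counts divided by core counts in each library, with all 7 kinase module genes and with Med13l left out (axis from 0). Right, log2 ratios of counts of 3 paralogue pairs; degron libraries (filled circles) lie below untreated ones (open squares) for the kinase to core ratio and for Cdk8/Cdk19, above them for Med12/Med12l and between them for Med13/Med13l.

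Levels per kb of gene body, from 300 bp after the start, ranged from 0.611 CPM per kb for Med14 to 8.02 CPM per kb for Med22 as means over the 4 libraries, with a median of 2.51 beside 1.32 for all tested genes. After Med22 came Med26 at 6.80, Med25 at 5.52, Med18 and Med28 at 5.12 each and Med13l at 5.00 CPM per kb. The order of these neighbours was not tested.

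General transcription factor genes, whose products assemble with Mediator at promoters, were read from the same fit. Of 32 tested, 8 rose and 8 fell, each 25% beside the 20.3% and 19.8% of all genes, and the median log2 fold change was 0.026. Taf9 had 0 counts in all 4 libraries, and another gene covers it fully on the same strand. Among TFIIH genes, Gtf2h3 rose to 74.3 and 73.6 CPM in degron libraries, against 45.2 and 50.7 CPM in untreated libraries (log2 fold change 0.63 ± 0.09, edgeR adjusted p = 7.64e-07). Among TFIID genes, Taf8 rose by 0.56 ± 0.08 and Taf11 by 0.51 ± 0.16, the second at 0.28 with length adjustment and no longer called. Both TFIIE genes fell, Gtf2e2 at -0.41 ± 0.07 and Gtf2e1 at -0.33 ± 0.10, and were named after their values were seen.

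Of 12 genes whose proteins are known to bind Mediator, 4 rose (33.3%) and 2 fell (16.7%), beside 20.3% and 19.8% of all genes, with a median of 0.070. None reached an absolute log2 fold change of 0.5, and the 6 called genes, Nipbl and Aff4 (lower) and Ell, Esrrb, Ehmt2 and Rest (higher), were named after their values were seen. Nipbl, the cohesin loader, had 133 and 134 CPM in degron libraries, against 170 and 179 CPM in untreated libraries (log2 fold change -0.39 ± 0.07, edgeR adjusted p = 6.69e-06), but was at -0.084 with length adjustment (edgeR adjusted p = 0.363). Aff4, of the super elongation complex that MED26 recruits, was at -0.23 and at -0.064 length-adjusted. Ell of the same complex rose by 0.40 ± 0.05, and by 0.51 with length adjustment. Esrrb, a nuclear receptor that is also among the stem cell markers, rose by 0.28, and Ehmt2 (0.23) and Rest (0.17) lost their calls with length adjustment.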

How the data were processed

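Chromatin-associated RNA was sequenced in 4 libraries, 2 degron and 2 untreated. The authors deposited 1 table of raw counts by gene. They trimmed reads with cutadapt 2.6, mapped them to mm10 and dm6 (bowtie2 in the methods, STAR 2.7.6a in the submitters' processing notes, which the sources used here do not settle) and counted uniquely mapped, deduplicated reads with featureCounts 1.6.3 from 300 bp after each gene start to its end. Introns count. The fly spike-in counts were not used here, and the methods name a GENCODE release for the study's RNA-seq but none for these counts.

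Gene symbols, positions and overlaps came from GENCODE M21 (mm10), which matched 36770 of 36918 identifiers. Genes were filtered with filterByExpr (minimum count 10, minimum total 15), scaled with TMM and tested in edgeR with robust quasi-likelihood F statistics, Benjamini-Hochberg adjusted over all 14361 genes. SEs come from the log2 fold change and F. The software was edgeR 4.0.16 on limma 3.58.1, with DESeq2 1.42.0, in R 4.3.3. The fits were also run on simulated data, whose results are not given here. Replicates of a group differed by slightly more than counting error, with a chi-square of 1.39 (degron) and 1.30 (untreated) for each degree of freedom. This does not show whether they came from separate cultures.

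The alternatives tried were scaling by total counts or by DESeq2 size factors, no filter, DESeq2's Wald test, a replicate block, each library left out, an older module scheme and length-adjusted scaling, for which a loess fit (span 0.3) on log10 length gave per-library offsets for 14351 genes. Members, lists and the length adjustment were chosen with earlier results of these data known. All members are named, and from other lists those past the threshold with an absolute log2 fold change of at least 0.5, at most 4 a direction, plus genes said to be named after their values were seen. Length bins were set after the trend was known.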

Additional observations from a re-analysis of the deposited data

How the results depend on the processing

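With DESeq2's Wald test 6 Mediator genes rose (14.7% of all genes with an adjusted p) and 4 fell (13.9%), and the calls of Med8, Med16, Med17, Med18, Med22, Med14, Med21, Med13 and Ccnc were lost (adjusted p from 0.0527 to 0.321). It called 5 general transcription factor genes in each direction and 2 Mediator-binding genes higher. With length-adjusted scaling 4 of 32 general transcription factor genes rose and 4 fell, beside 16.2% and 11.8% of all genes, and 0 Mediator-binding genes fell (edgeR), against 2 with TMM. Values that changed sign with it were Med13l (0.13), Cdk19 (0.054), Med12l (0.015), Med6 (-0.011), Med19 (-0.090) and Med7 (-0.13), of which Med13l alone passed the threshold on both sides. Med11 was at 0.0066 with total counts and 0.017 with no filter. Of the 19 calls, 5 held under every alternative (Med9, Med24, Med25, Med29 and Cdk8).

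With each library left out in turn, when the lone library of a group is assumed to vary like the other group, 13 of 19 calls held throughout. Lower Mediator genes then numbered 5 to 8, with 5 without untreated replicate 2, higher general transcription factor genes 5 to 9, with 5 without untreated replicate 1, and Mediator-binding genes 2 to 4 in either direction, with 2 higher without degron replicate 2 and 4 lower without degron replicate 1. Ranges across the sign were -0.20 to 0.24 for Med11, -0.16 to 0.12 for Med31, -0.023 to 0.10 for Med26 and -0.0070 to 0.028 for Med15, none of them called, and -0.14 to 0.13 for the log2 difference of the Med13/Med13l ratio. Med1 also passed with total counts (adjusted p = 0.0181), no filter (0.0160) and a replicate block (0.0256), and Med27 with total counts (0.0332) and no filter (0.0308). Med14 missed it with no filter (0.0709).

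Replicate numbers are shared between groups in the labels only. Same-numbered libraries deviated together with a correlation of 0.0239, so they were not treated as paired. A replicate block gave 12 higher and 8 lower Mediator genes and 4 lower Mediator-binding genes. Cause was not tested for any of these changes. Med11 and Med31, with 19 to 36 counts per library, show only large differences at this depth.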
